A study of Mus musculus with 6 samples.

Results

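Mature astrocytes of the mouse suprachiasmatic nucleus (SCN) were 1323 of 22796 nuclei profiled by single-nuclei RNA sequencing, a method that counts the RNA molecules of isolated nuclei one nucleus at a time. They were taken as the nuclei that the deposited annotation names mature astrocytes. C57BL6/J wild-type mice were sampled without treatment at gestational day 17.5 (GD17.5), postnatal day 2 (PND2), PND10 and, as adults, PND30. SCN tissue of 10 animals was pooled at each stage, a male and a female from each of at least 5 mothers, collected 3 to 5 hours after lights on. A single library was made for GD17.5 and for PND2, whereas library preparation and sequencing were repeated for PND10 and PND30, which have 2. Both libraries of a stage may hold the same pool of animals, so tests over libraries may measure technical spread only.

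Astrocytes are glial cells that take up glutamate and potassium at synapses, contact blood vessels and supply neurons with metabolites. In the SCN, the central circadian clock of mammals, they have clocks of their own and modulate the timing of the surrounding neurons through extracellular glutamate. They arise from radial glia late in embryonic development and mature over the first postnatal weeks, and ependymal cells, which line the ventricle beside the SCN, share that origin. In the annotation, immature astrocytes and ependymal cells form 1 common cluster, called immature astroglia below.

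The matrices give 32285 rows per library and no names for them. The markers Aldh1l1, Agt, Gfap and Slc1a3 could therefore not be read, and rows are described as features, by number and level. The label was instead checked across libraries. Each nucleus was compared with the mean profile of every cluster that held at least 20 nuclei in the other libraries of PND10 and PND30, in a space of 30 principal components. The nearest mean was that of mature astrocytes for 208 of 210 nuclei of PND10 replicate 1, 576 of 596 of PND10 replicate 2, 64 of 78 of PND30 replicate 1 and 289 of 296 of PND30 replicate 2. The share was lowest in PND30 replicate 1, at 82.1%, and all 14 of its remaining nuclei were nearest to immature astroglia. For PND10 replicate 1 the other libraries held only 7 immature astroglia, and with a mean of those 7 its share was 187 of 210 nuclei (89.0%). Both replicates 1 thus had larger shares of nuclei nearer to immature astroglia than replicates 2, and results that rest on them are given with and without those nuclei.

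Facts of the whole series bear on these values in a few places. The libraries held between 10921890 and 31389145 UMIs in placed nuclei, a UMI (unique molecular identifier) being the tag that counts each RNA molecule once. Between 0 and 9 annotated barcodes were shared by any 2 libraries. Doublets had been removed by the authors before the annotation was made. In total 6 nuclei could not be placed in a single library, among them 1 mature astrocyte of PND10.

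Mature astrocytes were almost absent before PND10 and the most frequent non-neuronal cluster at PND30. At GD17.5 there were 0 among 4921 nuclei, which allows a share of up to 0.0610%, and at PND2 there were 4 of 5555 (0.0720%). PND10 held 214 of 1361 nuclei in replicate 1 (15.7%, 95% exact binomial interval 13.8 to 17.8) and 634 of 4714 in replicate 2 (13.4%, 12.5 to 14.5). PND30 held 80 of 771 nuclei in replicate 1 (10.4%, 8.31 to 12.7) and 390 of 5468 in replicate 2 (7.13%, 6.46 to 7.85). Each of these intervals covers counting error only. The difference in mean share, PND30 minus PND10, was -5.83 percentage points, and the stages did not overlap. An exact two-sided permutation test gave p = 0.333, the smallest that 2 libraries against 2 allow. Among non-neuronal nuclei alone the order turned. There mature astrocytes made up 48.1% and 63.0% at PND10 and 70.8% and 70.7% at PND30, a difference of 15.2 points (exact permutation p = 0.333).

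Immature astroglia moved the other way. They numbered 489 nuclei at GD17.5, 664 at PND2, 104 and 7 in the replicates of PND10, and none among the nuclei of either PND30 library. At PND10 the replicates thus differed strongly, 67.3% of all astroglia being mature in replicate 1 and 98.9% in replicate 2. The 4 mature astrocytes of PND2 held 2485, 986, 7393 and 2625 UMIs.

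Nuclei of mature astrocytes held fewer UMIs than those of SCN neurons in each of the 4 libraries of PND10 and PND30. Their median was 7326 UMIs in PND10 replicate 1, against 8069 in the SCN neurons of the same library. SCN neurons are the Avp+, Vip+, Cck+ and Nms+ clusters together, named for the neuropeptides vasopressin, vasoactive intestinal peptide, cholecystokinin and neuromedin S. Cck+ and Nms+ nuclei were few at PND10, 84 and 7 of the 550 SCN neurons of PND30 replicate 1, and 1743 and 657 of the 4539 of PND30 replicate 2. In PND10 replicate 2 the medians were 3554 and 4365. In PND30 replicate 1 they were 7219.5 and 12271.5, and in PND30 replicate 2 they were 2201 and 3221. For mature astrocytes and SCN neurons, depth thus varied more between libraries than between the cell types. The ratio within a library was used for that reason.

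**Figure D1:**
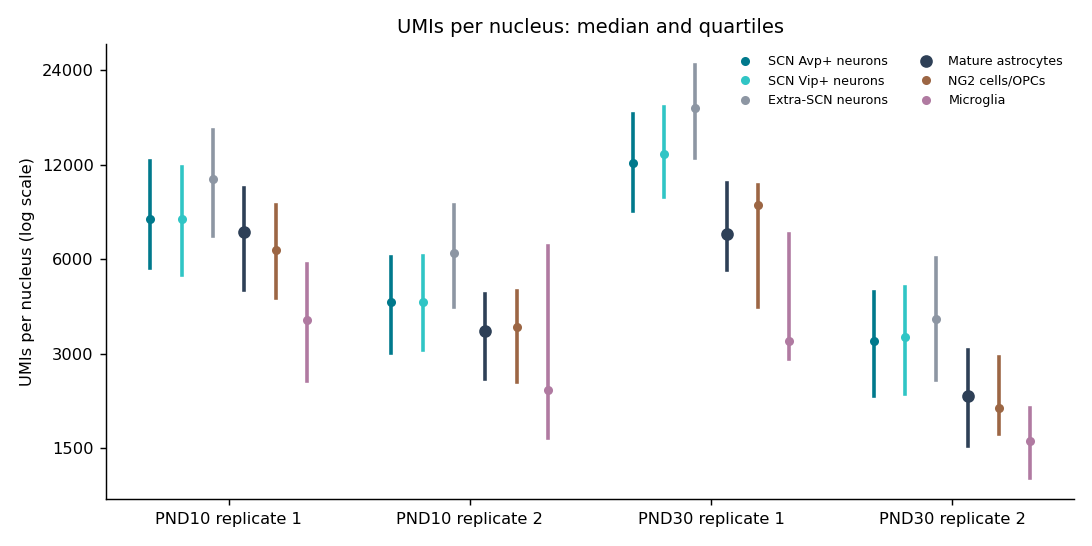
UMIs per nucleus on a log axis for mature astrocytes and 5 other clusters in the 4 libraries of PND10 and PND30; points are medians and bars run from the lower to the upper quartile. In every library the astrocyte median lies below those of Avp+, Vip+ and extra-SCN neurons and above that of microglia.

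The ratio of medians, astrocytes to SCN neurons, was 0.908 and 0.814 at PND10 and 0.588 and 0.683 at PND30. Its geometric mean was 0.738, and it was below 1 in 4 of 4 libraries. An exact two-sided sign-flip permutation test over the 4 libraries gave p = 0.125, the smallest this number of libraries allows. The ratio at PND30 was 0.737 times that at PND10, with no overlap between the stages and an exact permutation p of 0.333. Both values kept their direction with mean UMIs, with either neuron type alone and without any 1 library.

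Against other clusters the order was fixed in places and mixed in others. Relative to extra-SCN neurons, the neurons of surrounding tissue, the astrocyte ratio was 0.676, 0.565, 0.397 and 0.571 in the order of libraries used above. Relative to mature oligodendrocytes, which make myelin, it was 0.802, 0.732, 0.708 and 0.642. Mature astrocytes were lower than both in all 4 libraries. Relative to oligodendrocyte progenitors (OPCs) the ratio was 1.14, 0.976, 0.807 and 1.09, on either side of 1. Relative to microglia, the resident immune cells, it was 1.91, 1.55, 2.19 and 1.40, so that astrocytes were higher in each library.

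At equal depth the order against SCN neurons was the reverse. When every nucleus with at least 1500 UMIs was thinned at random to 1500, mature astrocytes had a median of 1056, 1031, 1035 and 1015 detected features. SCN neurons had 1016, 1000, 996 and 996.5. The ratio was 1.04, 1.03, 1.04 and 1.02, above 1 in 4 of 4 libraries (exact sign-flip permutation p = 0.125), and was close to equal at both stages. Extra-SCN neurons, at 1064, 1040.5, 1039 and 1045 features, were above mature astrocytes in each library, so the order against them was not reversed. Thinning left out 1.87%, 5.99%, 2.5% and 24.1% of mature astrocytes as too shallow.

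The summed profile of the cluster was spread over more features than that of Avp+ neurons. The effective number of features is the number that would give the same evenness if all were equally abundant. Leaving out the single most abundant feature, it was 5033, 4433, 4991 and 4302 in mature astrocytes and 4023, 3929, 3637 and 3930 in Avp+ neurons. That most abundant feature was the same matrix row in all 4 libraries and held 3.19%, 5.20%, 3.98% and 5.60% of astrocyte UMIs. Of the 100 most abundant features, 67 were shared by all 4 libraries.

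Features enriched in mature astrocytes were chosen at one stage and read in the libraries of the other. Enriched meant at least 50 CPM, counts scaled to a total of 1000000 UMIs, and at least 4-fold above every other cluster of at least 20 nuclei. At PND10 there were 82 such features and at PND30 there were 99, of which 32 were common to both (39.0% and 32.3%). The PND30 features took a median of 3.99% and 3.95% of UMIs in the mature astrocytes of PND10. The PND10 features took 4.13% and 4.17% in those of PND30. In Avp+ neurons the corresponding shares were 0.176%, 0.157%, 0.111% and 0.0998%.

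Neuronal RNA in mature astrocytes was read in the same way, except that microglia were not compared, which had not been planned. With microglia compared, 45 features were chosen at PND30 and 0 at PND10, so no share could be read at PND30. Those 45 took 0.223% and 0.236% of UMIs in the mature astrocytes of PND10. Features enriched in neurons over all clusters except microglia took 0.669%, 0.668%, 0.539% and 0.753% of astrocyte UMIs, against 9.79%, 9.66%, 9.0% and 7.72% in Avp+ neurons. Of the 1318 astrocyte nuclei placed in these libraries, 0 lay above the midpoint between the medians of the cell types.

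Within the cluster, a small group of nuclei carried features of the immature astroglia of PND10. Their annotated cluster is shared with ependymal cells and held 104 nuclei in replicate 1 and 7 in replicate 2. At PND10, 123 features held at least 50 CPM in immature astroglia and were at least 4-fold above every other cluster of that stage, mature astrocytes included. In most mature astrocytes these features took little of the RNA, while in 61 of 1318 nuclei (4.63%) they took over 1.5% of UMIs. These 61 are called rich nuclei below, a description from their counts and not a cell type. The level of 1.5% was placed after the values had been seen, in a gap present in each library, so the separation itself is no test. PND10 libraries chose the features, and the PND30 libraries played no part in that choice.

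**Figure D2:**
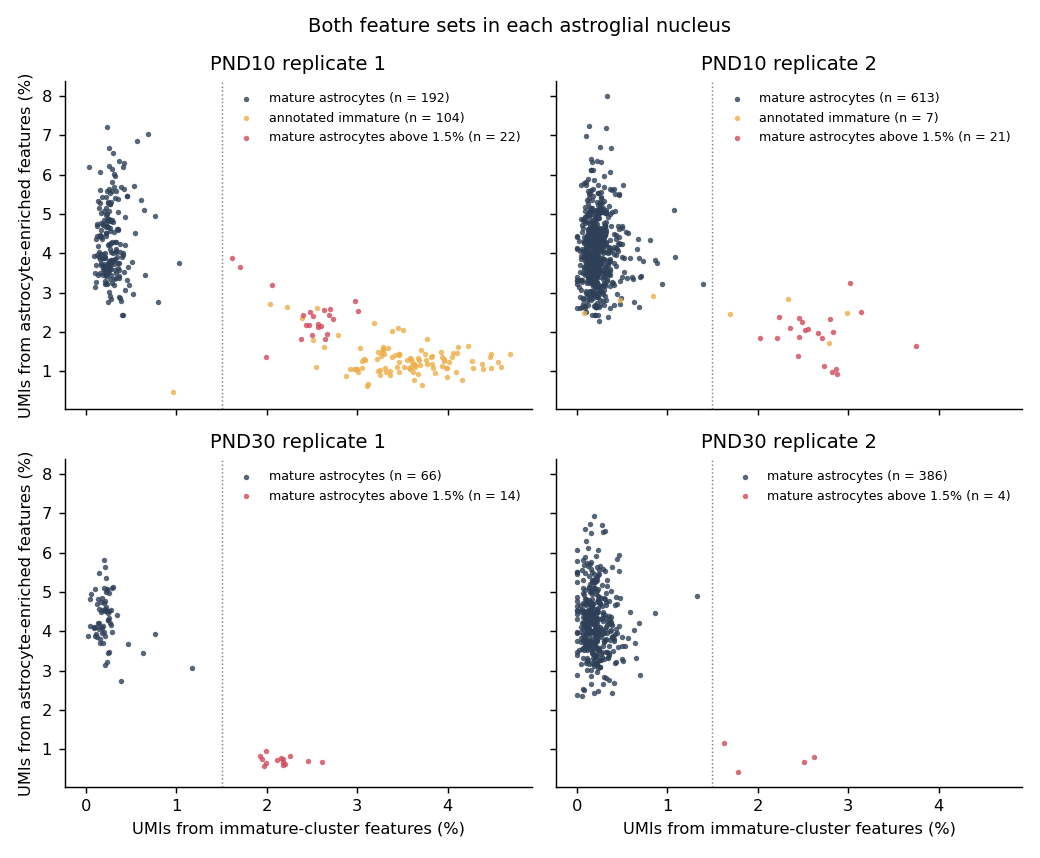
Each point is a nucleus, with a panel for each library of PND10 and PND30. The horizontal axis is the percentage of UMIs from the 123 features of PND10 immature astroglia. The vertical axis is the percentage from astrocyte-enriched features chosen at the other stage. Rich nuclei lie right of the dotted line at 1.5%, the other mature astrocytes lie upper left, and at PND30 no rich nucleus reaches the lowest astrocyte-enriched share of the others.

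The rich nuclei were unevenly spread over the libraries. They were 22 of 214 mature astrocytes in PND10 replicate 1 (10.3%, 95% exact binomial interval 6.56 to 15.2) and 21 of 634 in PND10 replicate 2 (3.31%, 2.06 to 5.02). At PND30 they were 14 of 80 in replicate 1 (17.5%, 9.91 to 27.6) and 4 of 390 in replicate 2 (1.03%, 0.280 to 2.61). The share was thus higher in replicate 1 at both stages, by more than the counting intervals, and differed more between replicates than between stages. They held 16.5%, 2.59%, 29.7% and 2.60% of all UMIs of the cluster.

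Immature-astroglia features took a median of 2.54%, 2.67%, 2.17% and 2.15% of UMIs in the rich nuclei. In the other mature astrocytes they took 0.265%, 0.204%, 0.204% and 0.189%. On either side of the level, the highest of the others stood at 1.03%, 1.39%, 1.18% and 1.33%, and the lowest of the rich at 1.61%, 2.03%, 1.92% and 1.63%. Few nuclei were intermediate, between 3 and 6 per library having a share from 1% to 2%.

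The same features set the rich nuclei beside some annotated immature astroglia. In PND10 replicate 1, 103 of 104 annotated immature nuclei lay above 1.5%, with a median of 3.56%. In PND10 replicate 2, 4 of 7 did. In earlier stages the level was lower, with a median of 0.873% and 250 of 664 nuclei above at PND2, and a median of 0.825% and 10.4% above at GD17.5. None of the 4 mature astrocytes of PND2 lay above, their shares running from 0.135% to 0.609%. In Avp+ and Vip+ neurons of PND10 and PND30, 0 nuclei lay above the level in each library.

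Astrocyte-enriched features were low in the rich nuclei. At PND30 their share had a median of 0.724% and 0.752% in rich nuclei and 4.28% and 4.18% in the others. There the groups did not overlap, the highest rich nuclei standing at 0.948% and 1.15% and the lowest of the others at 2.74% and 2.36%. At PND10 the medians were 2.37% and 1.97% against 4.15% and 3.98%, and the groups overlapped. The features differ between stages, so these shares are not compared across them. The level did not use astrocyte-enriched features, but the choices were linked. Those read at PND30 were chosen at PND10 as at least 4-fold above immature astroglia. The features behind the level were chosen at PND10 as at least 4-fold above mature astrocytes. These opposed choices favour low shares in rich nuclei, so the lack of overlap at PND30 is a description. Features read at PND10 were chosen at PND30, without immature astroglia to compare.

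Depth and neuronal RNA were given for the same nuclei, and their part in the pattern was not tested. Median UMIs of rich nuclei were 10829.5, 2644, 10300 and 6161.5, against 7067.5, 3576, 7120.5 and 2196 in the others. The ratio was 1.53, 0.739, 1.45 and 2.81, so that rich nuclei were deeper in 3 of 4 libraries. Thinned to 1500 UMIs, they still had more features in each library, 1129, 1103, 1111 and 1129.5 against 1048.5, 1030, 1022.5 and 1014.5. Neuron-enriched features took 1.13%, 1.08%, 0.706% and 0.972% of UMIs in rich nuclei and 0.642%, 0.660%, 0.504% and 0.753% in the others. Both lay far below the 7.72% to 9.79% of Avp+ neurons.

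Rich nuclei of different libraries resembled each other closely. Distances between mean profiles, corrected for the noise of the means and given in units of the 30 components, ran from 2.01 to 5.47 over the 6 pairs of libraries. The other mature astrocytes lay 2.66 to 7.34 apart over the same pairs. Within a library, rich nuclei and the others were 14.6 to 16.1 apart. Rich nuclei were 11.4 to 13.7 from the immature astroglia of PND10 replicate 1 and 21.6 to 22.3 from its OPCs. They were 11.3 to 13.6 from the immature astroglia of PND2 and 12.4 to 14.1 from those of GD17.5. The other mature astrocytes were 15.1 to 16.2 from the immature astroglia of PND10 replicate 1. They were 7.6 to 11.9 from those of PND2 and 11.2 to 14.3 from those of GD17.5. In each library, rich nuclei were thus nearer than the others to PND10 immature astroglia but further from those of PND2. Rich nuclei were chosen for features of PND10 immature astroglia in the same counts. That choice favours a smaller distance to that cluster and a larger one from the others, so these distances are descriptions.

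The features of the rich nuclei were compared between libraries. Rich nuclei had been picked by the same 123 features in each, which favours recurrence of these and of features varying with them. The counts below are therefore descriptions, and in PND30 replicate 2 they rest on 4 rich nuclei with 24852 UMIs. In PND30 replicate 1, 810 features were at least 4-fold higher in rich nuclei than in the others and 431 were at least 4-fold lower, among those reaching 50 CPM in either. Of the 810, 61 were among the 123. Of these 810 features, 793 were higher in the rich nuclei of PND10 replicate 1, 765 in PND10 replicate 2 and 724 in PND30 replicate 2, with median log2 differences of 2.18, 2.51 and 2.56. Among all 5354 features compared, 52.3%, 48.9% and 50.4% were higher. Of the 431 lower features, 412, 414 and 413 were lower in the same libraries. The 810 were also raised in the annotated immature astroglia of PND10 replicate 1, though less, with 682 higher against 59.3% of all features compared, and a median log2 difference of 1.02. In the single libraries 659, 867, 810 and 1077 features were at least 4-fold higher in rich nuclei, and 387 were so in all 4. At least 4-fold lower were 250, 594, 431 and 973, and 123 in all 4. Of the 387, 54 were among the features that had picked the nuclei.

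The heterogeneity of the cluster was described with and without the rich nuclei. Spread was measured as the mean squared distance of thinned nuclei to their cluster mean. It was 99.5, 59.8, 156 and 59.4 in mature astrocytes and 96.8, 88.2, 102 and 81.6 in SCN neurons. The ratio of 1.03, 0.678, 1.53 and 0.727 lay on either side of 1, with a geometric mean of 0.938 and an exact sign-flip permutation p of 1. It was above 1 in both replicates 1, the libraries with the larger shares of rich nuclei. Without the rich nuclei, the spread of mature astrocytes was 60.1, 43.8, 78.6 and 48.4, against 86.4, 80.1, 93.5 and 75.5 in SCN neurons in the refitted space. The ratio was then 0.696, 0.547, 0.841 and 0.640, below 1 in each library. Nuclei were left out of mature astrocytes alone, so a fall in their spread was built into that step. The reference pools all 4 types of SCN neuron and so includes the differences between them. Against a single type the order was mixed. With all nuclei, mature astrocytes were more spread than Vip+ neurons by a factor of 1.57. Without the rich nuclei they were more spread than Vip+ neurons, at 58.0, 53.2, 49.2 and 41.9, in 3 of 4 libraries, and than Avp+ neurons, at 68.8, 58.3, 69.4 and 46.0, in both libraries of PND30.

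A second measure, over about 3000 features of at least moderate level, gave the biological variation of a feature relative to its mean. This relative SD was 0.625, 0.564, 0.611 and 0.565 in mature astrocytes and 0.559, 0.537, 0.537 and 0.557 without the rich nuclei. In Avp+ neurons it was 0.637, 0.645, 0.644 and 0.631, above mature astrocytes in each library. In Vip+ neurons it was 0.628, 0.591, 0.539 and 0.542. The leading component within mature astrocytes held 5.72%, 3.34%, 9.29% and 2.89% of their variance, and 3.89%, 3.35%, 2.80% and 3.05% without the rich nuclei. It was thus larger in replicate 1 than in replicate 2 at both stages with all nuclei, and without the rich nuclei at PND10 alone.

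Distance to immature astroglia was read first as a position between the mean of GD17.5 immature astroglia, set to 0, and the mean of PND30 mature astrocytes, set to 1. The clusters were made from these counts, so positions are descriptions with no test. PND10 mature astrocytes had median positions of 0.839 and 0.797, a mean of 0.818 ± 0.030 (SD, n = 2 libraries). PND30 mature astrocytes had 1.06 and 1.05. PND2 immature astroglia were at 0.287, and the PND10 immature astroglia of replicate 1, at 0.237, were no further along than those of PND2. The 7 of PND10 replicate 2 had a median of 0.434. Of the 4 mature astrocytes of PND2, 3 were deep enough to be placed, at 0.590, 0.616 and 0.655, between the immature astroglia of their stage and the mature astrocytes of PND10.

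**Figure D3:**
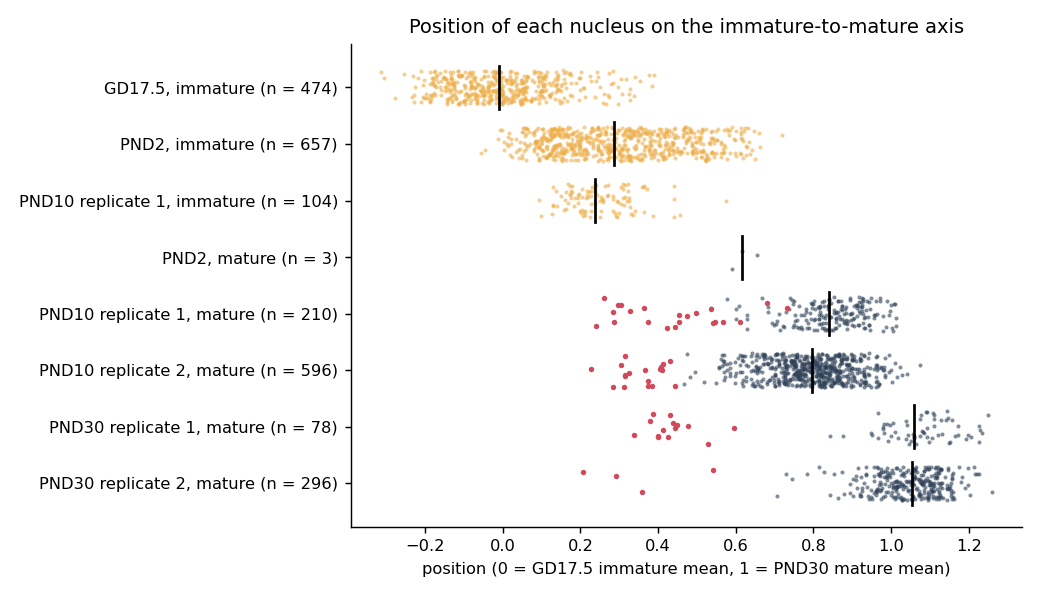
Position of each nucleus between GD17.5 immature astroglia (0) and PND30 mature astrocytes (1), by library and annotated cluster, with rich nuclei in red and a black bar at each median. Rich nuclei of all 4 libraries lie between 0.208 and 0.731, below the medians of the other mature astrocytes.

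Projected on this axis, rich nuclei had median positions of 0.449, 0.371, 0.428 and 0.324. The other mature astrocytes had medians of 0.856 and 0.801 at PND10 and 1.08 and 1.06 at PND30. A position on 1 line does not place nuclei between its ends. By distance, rich nuclei lay 12.4 to 14.1 from GD17.5 immature astroglia and 14.6 to 16.9 from the other mature astrocytes of any library. Those other mature astrocytes lay 11.2 to 14.3 from GD17.5 immature astroglia. When rich nuclei were left out and the axis refitted, PND10 mature astrocytes had a mean position of 0.780. With PND2 immature astroglia as the start it was 0.662.

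The nearest mean of rich nuclei was mostly that of immature astroglia, which their selection favours and which is given as a description. This held for 20 of 22 in PND10 replicate 1, 18 of 18 in PND10 replicate 2, 14 of 14 in PND30 replicate 1 and 4 of 4 in PND30 replicate 2. Among the other mature astrocytes deep enough to be compared it held for 3 of 188, 1 of 578, 0 of 64 and 0 of 292. For PND10 replicate 1 the immature mean rested on the 7 nuclei of replicate 2.

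Pairwise distances between cluster means gave the same scale for all clusters. Mature astrocytes of both PND10 libraries were 2.74 apart, those of both PND30 libraries 4.73, and those of different stages 5.65 to 7.14. The immature astroglia of PND2 lay at 7.52 and 7.29 from PND10 mature astrocytes and at 10.5 and 11.1 from those of PND30. Those of GD17.5 lay further away, at 11.1, 10.9, 12.8 and 13.8. The immature astroglia of PND10 replicate 1 were the most distant of the astroglial clusters, at 14.4 to 15.7. In each library the order among astroglia, from mature astrocytes outward, was thus PND2, GD17.5 and PND10 immature astroglia. Clusters other than astroglia lay at 17.1 or more, with OPCs of any library at 17.2 to 20.4, and microglia or neurons were nearer than OPCs in places.

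**Figure D4:**
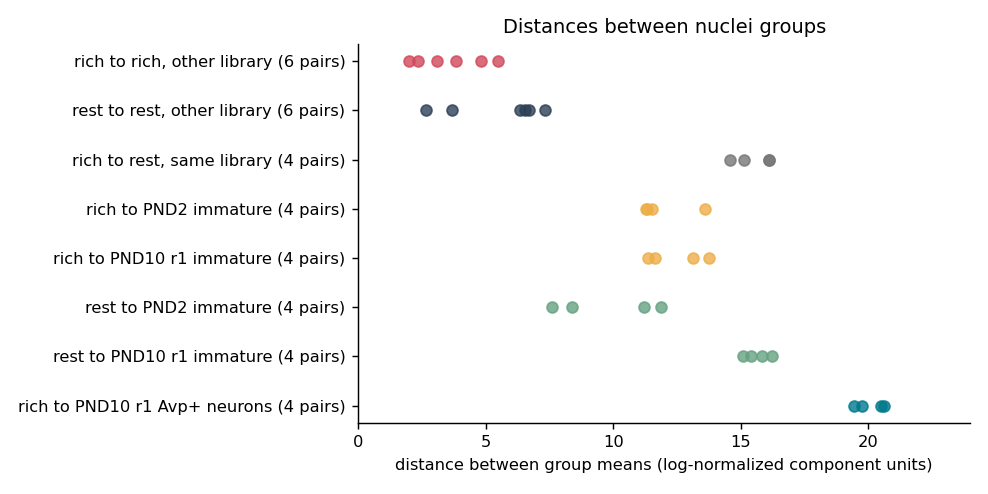
Noise-corrected distances between mean profiles, in units of the 30 principal components, with rich nuclei and the other mature astrocytes of PND10 and PND30 taken separately. Rich nuclei of different libraries lie 2.01 to 5.47 apart and the others 2.66 to 7.34. From PND2 immature astroglia the others lie 7.6 to 11.9 away and rich nuclei 11.3 to 13.6.

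Neighbourhoods placed single nuclei in the same way. Among the 20 nearest astroglia from other libraries, immature ones made up 6.43%, 9.06%, 8.14% and 0.236% for mature astrocytes, while they made up 40% to 50% of the nuclei available. Without the rich nuclei the shares were 4.12%, 8.80%, 0.156% and 0.120%. The share thus fell to near 0 in PND30 replicate 1 and changed little in PND10 replicate 2.

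Astrocyte-enriched features also placed PND2 immature astroglia nearest, while those of GD17.5 and PND10 were close to equal. For the 99 features chosen at PND30, the median log2 difference from PND30 mature astrocytes was -0.25 and -0.36 in PND10 mature astrocytes. It was -1.30 in PND2 immature astroglia, -2.20 in those of GD17.5 and -2.17 in those of PND10 replicate 1. These features took 1.82% of UMIs in immature astroglia at PND2, 1.21% at GD17.5 and 1.25% at PND10 replicate 1. From the immature astroglia of GD17.5 and PND2 to the mature astrocytes of PND30, 50 features were lost and 106 gained, meaning that both libraries on one side held at least 50 CPM and at least 4-fold the level of both on the other. On the log2 scale, PND10 mature astrocytes had covered a median of 0.60 and 0.68 of the way for the lost features and 0.65 and 0.65 for the gained ones.

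The change of mature astrocytes from PND10 to PND30 was tested on UMIs summed per library, 1703692 and 2409465 at PND10 and 701788 and 954193 at PND30. With all nuclei, edgeR's quasi-likelihood test called 2 of 12145 features (0.0165%) at a Benjamini-Hochberg adjusted p under 0.05, both higher at PND30. At an unadjusted p under 0.05 it counted 1123. DESeq2 called 133, of which 77 were higher and 56 lower.

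The first of the called features had 3.56 and 1.70 CPM at PND10 and 361 and 300 CPM at PND30, a log2 fold change of 6.99 (edgeR adjusted p = 0.0387). It rested on 6 and 4 UMIs at PND10. The second had 39.7 and 41.1 CPM at PND10 and 329 and 326 CPM at PND30, a log2 fold change of 3.01 (edgeR adjusted p = 0.0434). In both, the stages did not overlap, which the test selects for and which held for 4823 of all 12145 features tested. Both were among the 99 features enriched in mature astrocytes at PND30, chosen with the PND30 values used in this contrast. In Avp+ and Vip+ neurons the first had 1.29 and 0.844 CPM at PND10 and 4.87 and 3.69 CPM at PND30. The second had 0.646 and 1.43 CPM, then 2.74 and 3.07 CPM.

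The count differed when the rich nuclei were left out. They held 29.7% of the UMIs of PND30 replicate 1 and 2.60% of those of PND30 replicate 2, and the biological coefficient of variation between replicates was 0.274. In an alternative set after these values had been seen, the rich nuclei were left out of all 4 libraries. The coefficient was then 0.166 and edgeR called 343 of 11267 features (3.04%), 204 higher (1.81%) and 139 lower (1.23%) at PND30. The count without rich nuclei ran from 341 to 649 when 1 library was left out as well. With all nuclei it was 83 without PND30 replicate 1, 0 without PND10 replicate 2 (415 at an unadjusted p under 0.05), 2 without PND10 replicate 1 and 1 without PND30 replicate 2.

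**Figure D5:**
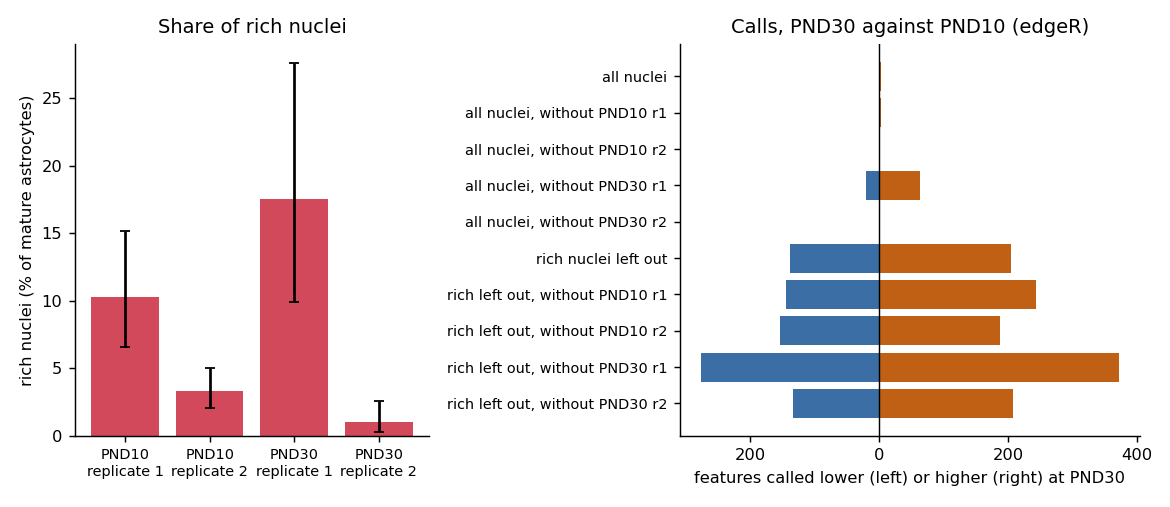
Left, rich nuclei as a percentage of mature astrocytes in each library, with 95% exact binomial intervals; right, number of features called lower or higher at PND30 by edgeR (adjusted p under 0.05) with all nuclei, without the rich nuclei and with single libraries left out. The share of rich nuclei runs from 1.03% to 17.5%, and 343 features are called without them against 2 with all nuclei.

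Without the rich nuclei the called features changed by a median of 1.56 on the log2 scale where higher and 1.48 where lower, with 70 and 36 of them over 4-fold. Both features called with all nuclei were among the 343, at log2 fold changes of 8.12 and 3.25. Of the 99 features enriched at PND30, which were chosen with the PND30 values used in this contrast, 31 of 98 tested were higher and 2 lower. Of the 82 enriched at PND10, 6 were higher and 11 lower. Those counts are descriptions, since the choice at either stage favours its direction. Of the 123 immature-astroglia features, 64 were tested, with 1 higher and 4 lower, against 1.81% and 1.23% of all features tested. Nuclei had been left out for high levels of these same features, so their values are conditioned on that choice.

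The earlier course of these features was read in immature astroglia, which took no part in the test. Of the 204 features higher at PND30, 154 (75.5%) were higher in immature astroglia of PND2 than of GD17.5, with a median log2 difference of 0.29. Of the 139 lower features, 81 (58.3%) were also higher at PND2. Among all features tested the figure was 48.5%. Both stages have 1 library each, so this step has no replicate check.

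Whether the change differed from that of neurons was tested as an interaction of class and stage, with the library as a block. With all nuclei, edgeR found a different change in mature astrocytes than in Avp+ and Vip+ neurons for 9 of 16212 features (0.0555%). The change in astrocytes was more positive than that in neurons for 7 and more negative for 2. These signs do not say in which cell type a feature changed. At an unadjusted p under 0.05 edgeR counted 1460, and DESeq2 called 45. Without the rich nuclei edgeR called 346 of 15813 (2.19%), among them 98 of the 204 higher and 61 of the 139 lower features. The same astrocyte counts enter both tests, so this overlap is favoured by the choice and is a description only. Of the 204 higher features 186 were tested in Avp+ and Vip+ neurons alone, and 5 were called higher there, against 0.17% of all 15873 features tested. Of the 139 lower features 135 were tested and 14 were called lower, against 0.384%, with 1 called higher. The count in neurons depended on the type. The same test between stages called 826 of 12484 features (6.62%) in Vip+ neurons alone and 13 of 14610 (0.089%) in Avp+ neurons alone. In both types summed together it called 88 of 15873 (0.554%).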

How the data were processed

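Single-nuclei suspensions from fresh-frozen SCN were processed with 10x Genomics 3′ chemistry. The authors aligned reads and counted UMIs with Cell Ranger 5.0.1 and deposited raw counts per feature and barcode, without normalization, on mm10 per the labels, and annotated nuclei with Seurat 4 after filters on depth, detected genes, mitochondrial and ribosomal content and doublets. Nuclei were assigned to libraries by barcode within their stage. The members and lists were chosen with earlier results of these data known.

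For distances, neighbours and spread, nuclei of at least 1500 UMIs were thinned to 1500 UMIs. After log-normalization to a total of 10000, 30 principal components were computed from 2000 variable features, with balanced draws of 70 nuclei per group. Enriched features had at least 50 CPM and 4-fold the level of every other cluster of at least 20 nuclei, after adding 1 CPM. Intervals are Clopper-Pearson at 95%, and a count of 0 is given with the limit of 3 counts of the total. Summed counts were tested with edgeR 4.0.16 (quasi-likelihood, TMM, filterByExpr, Benjamini-Hochberg) and DESeq2 1.42.0 in R 4.3.3. Other steps used Python 3.11.15, NumPy 2.4.6 and SciPy 1.17.1, and both the measures and the tests were also run on simulated data. With 200 features changed, the edgeR stage test on all nuclei recovered 0% of 2-fold and 50% of 4-fold changes, with 0 and 17 false calls. Without the rich nuclei it recovered 26.5% and 80.5%, with 7 and 6 false calls. The interaction test recovered 61% of 4-fold changes, with 21 false calls. Per-library values are given in the order PND10 replicate 1, PND10 replicate 2, PND30 replicate 1, PND30 replicate 2. No feature is named, because row numbers cannot be interpreted, and no sequence is given.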

Additional observations from a re-analysis of the deposited data

Results flagged for a closer look

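The change from PND10 to PND30 differed between mature astrocytes and Avp+ and Vip+ neurons for 9 of 16212 features by the edgeR interaction test, with all nuclei. It is listed here because the difference between the cell types was itself tested. The count was 346 without the nuclei rich in immature-astroglia features, an alternative chosen after the data had been seen.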

How the results depend on the processing

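Of 127 alternatives over 14 results, 81 kept the direction and size of the result, 38 moved it and 8 reversed its direction. The causes were not tested. The share of mature astrocytes, -5.83 points from PND10 to PND30, was 15.2 points among non-neuronal nuclei. The stage ratio of features at equal depth, 0.994, was 1.00 at 3000 UMIs and 0.984 to 1.00 with 1 library left out. The spread ratio to SCN neurons, 0.938, was 1.57 against Vip+ neurons, 1.42 against the mean within each neuron type and 0.797 to 1.05 with 1 library left out, above 1 without PND10 replicate 2 (1.05) or PND30 replicate 2 (1.02). Its stage ratio, 1.26, ran from 0.872 (without PND30 replicate 1) to 1.83. The position of PND10 mature astrocytes, 0.818, was 0.662 with PND2 as the start, 0.780 without rich nuclei and 0.785 to 0.839 with 1 library left out. Immature neighbours, 5.97% on average, were 7.80% to 14.4% with 1 library left out, the highest without PND10 replicate 1. They were 3.24% with 10 neighbours, 9.45% with 50 neighbours, 6.92% with 10 components and 3.30% without rich nuclei. The UMI share of astrocyte-enriched features, 4.06%, was 9.95% at 2-fold, 1.06% at 8-fold and 4.36% to 12.3% with 1 library left out, which also changes the features chosen. For neuron-enriched features the share of 0.230% was 0.976% at 2-fold, 0 at 8-fold, 0.0814% to 3.39% with 1 library left out, and 0.657% with microglia not compared. The 2 features called between stages were 133 with DESeq2, 370 without a filter on low counts, 1 with upper quartile normalization, 10 with counts thinned to the smallest total and 0 to 83 with 1 library left out. Leaving out rich nuclei, chosen after seeing the data as were its combinations, gave 343, and with PND10 replicate 1, PND10 replicate 2, PND30 replicate 1 or PND30 replicate 2 also left out 389, 341, 649 and 342. The replicate numbers are shared by the stages, but the labels do not say what they mark. A fit with the replicate block called 465 features (275 higher, 190 lower at PND30), and 969 without rich nuclei. The deviations of same-numbered libraries correlated at 0.560 across 12145 features, and at 0.255 without rich nuclei. The 9 features whose change differed from neurons were 45 with DESeq2, 279 without the filter, 126 with the replicate block (3 with the larger rise and 123 with the larger fall in astrocytes, where the fit without it had 7 and 2), 346 without rich nuclei and 0 to 66 with 1 library left out. No other result came from a fit that could hold such a block. Depth limits the PND30 replicate 2 values most, where 24.1% of mature astrocytes had under 1500 UMIs.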

Other observations

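Annotated immature astroglia of earlier stages were also compared with the cluster means of PND10 and PND30. Of 474 nuclei of GD17.5, 252 (53.2%) were nearest to mature astrocytes and 217 (45.8%) to immature astroglia, and of 657 nuclei of PND2, 384 (58.4%) and 265 (40.3%). All 3 placed mature astrocytes of PND2 were nearest to mature astrocytes. The immature mean of the late stages rests mainly on the 104 nuclei of PND10 replicate 1.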
